A study of Bos taurus with 16 samples.

Results

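HSP90AA1, HSP90AB1 and 8 genes of HSP90 cochaperones were measured in the spleen of 16 crossbred beef steers that differed in weight gain and feed intake. The members were STIP1, FKBP4, AHSA1, AHSA2, PTGES3, CACYBP, CHORDC1 and SUGT1 beside the HSP90 pair. A member was taken as every transcript cluster, the set of probes along a gene, that carried the gene's symbol alone in the platform annotation. Each of the 10 members had 1 such cluster, out of 18444 genes with a single symbol and 24651 rows in the table tested. The members were chosen with results on these same animals known. Of the 10, 8 are in the study's list of differentially expressed genes, and HSP90AB1 and PTGES3 are not. Differences of the members between the groups are therefore given as a description, with standard errors. Counts of members past a p threshold are given beside the share of all rows, and no p-value of a member is printed.

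The steers were fed a standard concentrate ration without restriction for 84 days from about a year of age, and formed 4 groups of 4 by gain and then intake. The labels call them high gain-high intake (here high-high), high gain-low intake (high-low), low gain-low intake (low-low), and, last, low gain-high intake (low-high). Each group held animals ranked farthest from the herd mean in its quadrant, except that a steer of an over-represented sire breed gave way to the next in rank. All were penned together and slaughtered over 4 days, with 1 of each group per day, and breed composition differed between the groups. Which steer fell on which day or array strip, and its breed, is not known here and could not enter any comparison. Steers are numbered 1 to 4 within a group only to tell them apart.

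HSP90 is an abundant cytosolic chaperone that folds and stabilises kinases, steroid receptors and other clients in a cycle driven by ATP. Its cochaperones load clients from HSP70, speed up or slow down ATP hydrolysis, or tether particular clients. HSP90AA1 is the form that heat shock factor 1 induces under proteotoxic stress, and HSP90AB1 is the mostly constitutive form. In the spleen, the chaperone serves lymphocyte and macrophage signaling proteins among its clients. Roles named here are known mainly from human and mouse proteins.

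Each value is the authors' log2 expression after background correction and normalization between arrays, on a scale they had stretched to widen fold changes. It is a relative level for each gene, and levels of the members are not compared with each other. The place of a marker gene against the median row, given below, is only a rough guide. There was 1 array per steer, so 4 arrays per group limit the precision. Array medians lay between 8.24 and 8.37, and any pair of arrays correlated at 0.955 to 0.986 across features. The highest value on the scale was 19.93, and no member came within 3 log2 units of it. All 7 B cell, 7 T cell and 8 red pulp macrophage markers measured lay above the median row, and CD163 and SPIC, which mark red pulp macrophages, were among them. The markers of pancreas and adipose tissue measured all lay below that median, 4 and 6 genes. The other lists were mixed or high: 5 of 6 neutrophil, 2 of 6 erythroid and 5 of 5 smooth muscle markers lay above it. So did 1 of 6 liver and 1 of 5 rumen epithelium markers. Whole spleen was used, so a higher share of one cell type and more RNA per cell cannot be told apart.

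HSP90AA1 averaged 15.76 ± 0.72 (SD, n = 4) in the low-low animals and 15.02 ± 0.34, 14.82 ± 0.34 and 14.85 ± 0.22 in the high-high, high-low and low-high animals. The low-low steers measured 16.82, 15.36, 15.30 and 15.55. The high-high steers measured 14.51, 15.22, 15.11 and 15.24. The high-low steers measured 15.05, 14.33, 15.08 and 14.82, and the low-high steers 14.96, 15.04, 14.86 and 14.55. Each low-low steer lay above the other 12, the lowest of them at 15.30 and the highest of the others at 15.24. Over all rows tested, 0.101% had the low-low steers entirely above the rest, with HSP90AA1 the 1 member among them, and 0.0649% entirely below, with no member. The log2 difference from the mean of the other 3 groups was 0.86 (standard error 0.24).

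HSP90AB1, the constitutive form, had a smaller difference than HSP90AA1. Its group means were 14.60 ± 0.31 (SD, n = 4) in the low-low, 14.55 ± 0.45 in the high-high, 14.40 ± 0.20 in the high-low and 13.99 ± 0.23 in the low-high animals. The low-low steers measured 14.49, 14.79, 14.90 and 14.21, and the high-high steers 14.04, 14.31, 14.82 and 15.04. The high-low steers measured 14.45, 14.30, 14.21 and 14.66, and the low-high steers 13.76, 13.95, 13.94 and 14.30. The groups overlapped, the highest array belonged to a high-high steer, and the low-high animals were lowest. The low-low difference was 0.28 (standard error 0.17), the smallest of the 10 members.

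**Figure D1:**
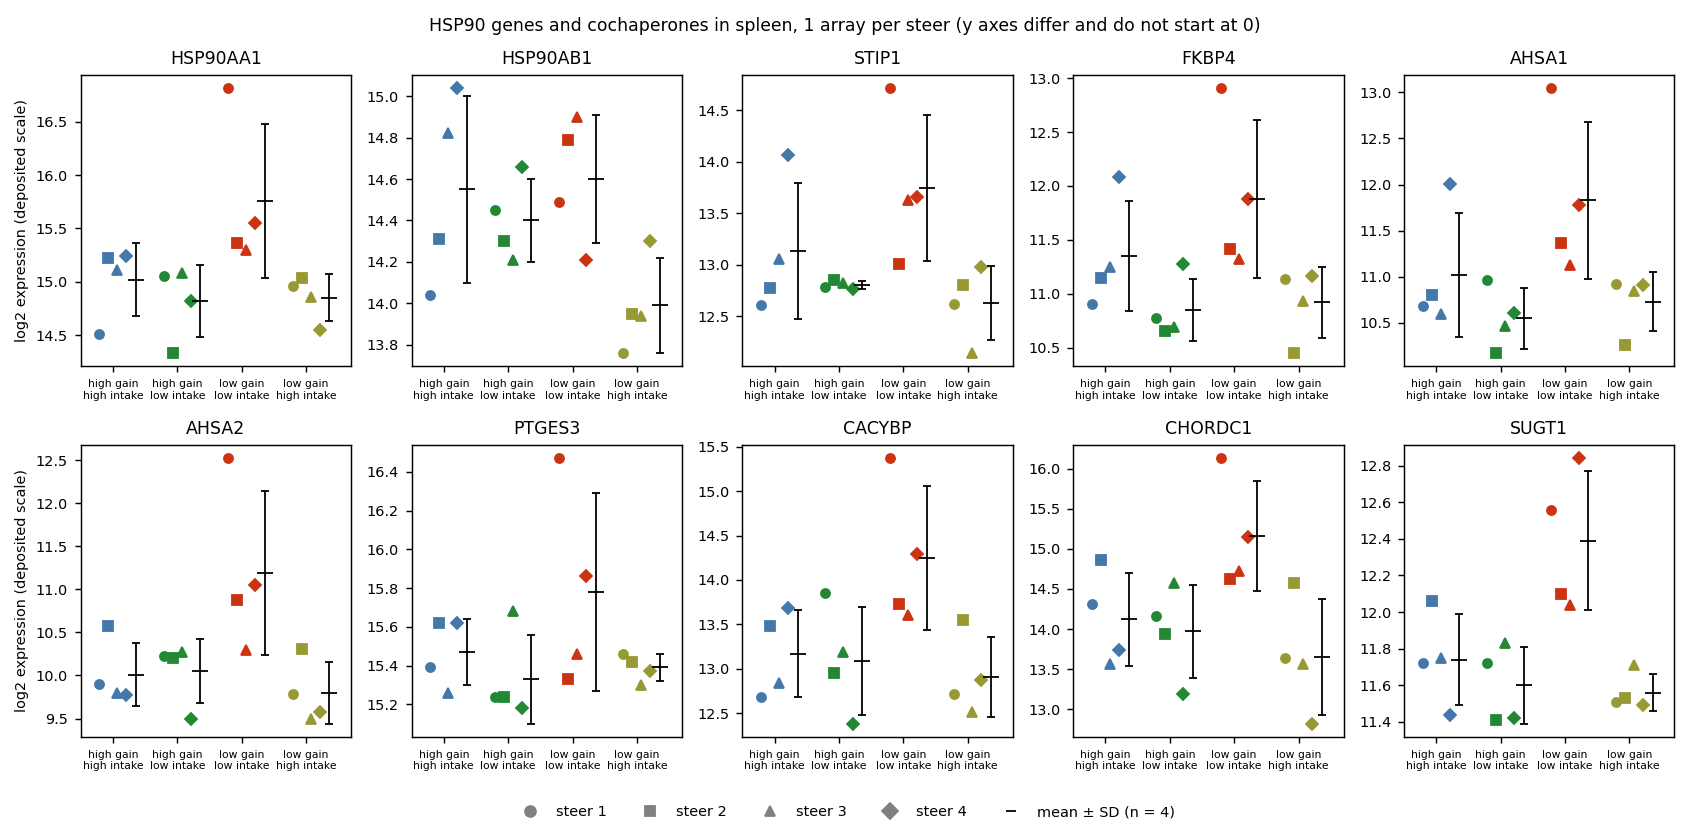
Log2 expression (y axis, deposited scale, not starting at 0) of the 10 members in each steer of the 4 groups (x axis). Symbols mark steers 1 to 4 and the bars show the mean ± SD (n = 4). Low-low steer 1 was the highest of the 16 arrays for 8 of the 10 members, the exceptions being HSP90AB1 and SUGT1.

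STIP1, which bridges HSP70 and HSP90 and hands over clients, averaged 13.75 ± 0.71 (SD, n = 4) in the low-low animals, against 13.13 ± 0.66, 12.80 ± 0.04 and 12.63 ± 0.36 in the high-high, high-low and low-high animals. The low-low steers measured 14.72, 13.01, 13.63 and 13.66, and the high-high steers 12.61, 12.77, 13.06 and 14.07. The high-low steers lay between 12.76 and 12.85 and the low-high steers between 12.14 and 12.98. Steer 4 of the high-high group was thus above 3 of the 4 low-low steers. The difference of the low-low group was 0.90 (standard error 0.27).

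FKBP4, an immunophilin that accompanies HSP90 in steroid receptor complexes, showed the same pair of high steers. It measured 12.91, 11.42, 11.32 and 11.88 in the low-low animals and 10.91, 11.15, 11.25 and 12.08 in the high-high animals. The remaining 8 steers lay between 10.45 and 11.28. The difference was 0.84 (standard error 0.26).

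AHSA1, which stimulates the ATPase of HSP90, averaged 11.83 ± 0.85 (SD, n = 4) in the low-low animals. These steers measured 13.05, 11.37, 11.13 and 11.78, and the high-high steers 10.68, 10.80, 10.59 and 12.01. The high-low steers measured 10.96, 10.17, 10.47 and 10.61, and the low-high steers 10.92, 10.26, 10.85 and 10.91. Apart from high-high steer 4, all others lay below the 4 low-low steers. The difference was 1.07 (standard error 0.31).

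AHSA2, a relative of AHSA1, had a larger difference of 1.23 (standard error 0.30) and a different order of steers. The low-low steers measured 12.52, 10.87, 10.30 and 11.05, an average of 11.19 ± 0.95 (SD, n = 4). The high-high steers measured 9.90, 10.57, 9.80 and 9.77, the high-low steers 10.23, 10.20, 10.27 and 9.50, and the low-high steers 9.78, 10.31, 9.50 and 9.58. High-high steer 4, which ranked 2 of 16 for AHSA1, ranked 13 for AHSA2. PTGES3, also known as p23, holds HSP90 in its closed state. It measured 16.47, 15.33, 15.46 and 15.86 in the low-low animals and between 15.18 and 15.68 in the other 12, a difference of 0.38 (standard error 0.17).

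CACYBP, CHORDC1 and SUGT1 share a fold with p23, the CS domain, and bind HSP90 through it. CACYBP, a partner of the SIAH1 ubiquitin ligase, averaged 14.25 ± 0.81 (SD, n = 4) in the low-low animals. The other group means were 12.91 to 13.17, and the difference was 1.19 (standard error 0.32). Its low-low steers measured 15.37, 13.73, 13.60 and 14.29, and the other 12 lay between 12.38 and 13.85. Steers 2 and 3 thus fell within the range of the other groups, and steers 1 and 4 did not.

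CHORDC1, a zinc-binding cochaperone, had the largest difference of the 10 members, 1.25 (standard error 0.34). Its low-low steers measured 16.13, 14.63, 14.72 and 15.15. The high-high steers measured 14.31, 14.86, 13.57 and 13.74, the high-low steers 14.16, 13.94, 14.57 and 13.19, and the low-high steers 13.64, 14.57, 13.56 and 12.82. A single steer of the other groups, high-high steer 2, reached the range of the low-low animals.

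SUGT1 links HSP90 to NOD-like receptors and to the SKP1 ubiquitin ligase complex. Its low-low steers measured 12.56, 12.10, 12.04 and 12.84, an average of 12.39 ± 0.38 (SD, n = 4). The high-high steers measured 11.72, 12.06, 11.75 and 11.44, the high-low steers 11.72, 11.41, 11.83 and 11.42, and the low-high steers 11.51, 11.53, 11.71 and 11.49. All but 1 of the low-low steers lay above the other 12. The difference was 0.75 with the smallest standard error of the 10, 0.15, and steer 4 rather than steer 1 was highest.

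Averaged over the 10 members, the low-low animals were at 13.66 ± 0.59 (SD, n = 4) and the other groups at 12.96 ± 0.27, 12.75 ± 0.18 and 12.64 ± 0.11, in the order high-high, high-low and low-high. The difference was 0.88 (standard error 0.20). All 10 members had a positive difference, with a median of 0.88, where the median over all rows was -0.002 and 12207 of 24651 rows were positive. In the limma fit, 9 members, all but HSP90AB1, were higher at an unadjusted p under 0.05, beside 2.96% of all rows that were higher and 5.49% in either direction. At an adjusted p under 0.05, 0 members and 0 of all rows were called, by limma and by ordinary least squares. The F test over the 4 groups had 9 members, all but PTGES3, and 4.71% of all rows at an unadjusted p under 0.05. These comparisons took part in the choice of the members, so nothing is read from the counts.

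Low-low steer 1 was the highest of the 16 arrays for 8 members, beside 5.53% of all rows. Its values lay a median of 1.33 above the mean of the other 3 steers of its group over the members, and 0.48% of all rows deviated upward by more on that array. For the other steers of the group, this median was between -0.60 and -0.04. Without steer 1, the difference was 0.50 for HSP90AA1 (standard error 0.18), 0.58 for STIP1 (0.25), 0.50 for FKBP4 (0.23), 0.66 for AHSA1 (0.26), 0.79 for AHSA2 (0.23) and 0.15 for PTGES3 (0.14). These 6 moved by more than 1.5 times. SUGT1 kept 0.69, CHORDC1 0.93, CACYBP 0.82 and HSP90AB1 0.32. Without this steer, 8 members were higher at an unadjusted p under 0.05, beside 2.24% of all rows, while the F test had 2 members left of 9, beside 3.68% of all rows. PTGES3 was the member no longer called in the low-low comparison, and it was also not called when any of 6 other steers was left out.

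**Figure D2:**
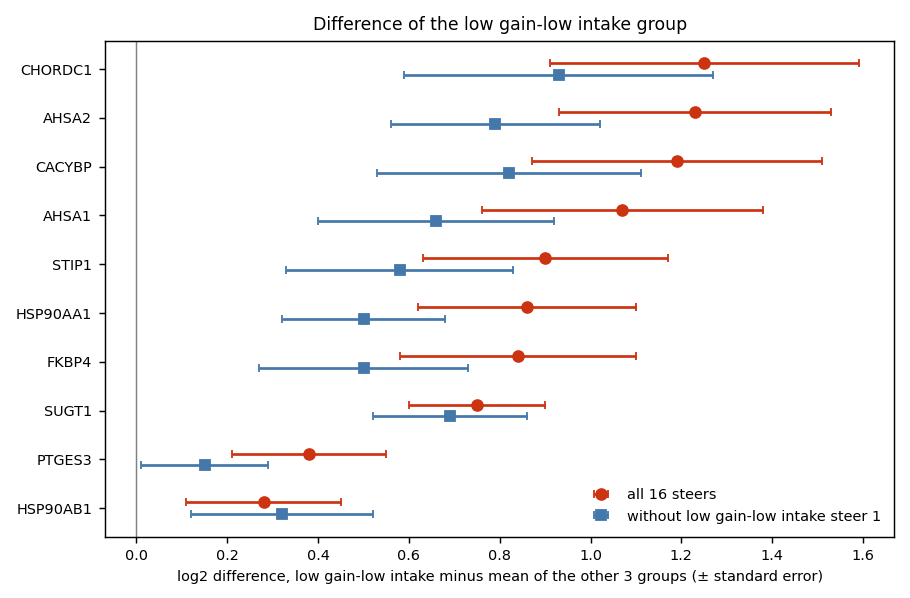
Log2 difference of the low-low group from the mean of the other 3 groups (x axis, bars are the standard error of the limma fit) for each member (y axis), with all 16 steers and without low-low steer 1. CHORDC1 stands at 1.25 and 0.93, HSP90AA1 at 0.86 and 0.50, and PTGES3 at 0.38 and 0.15.

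Steer 1 also had the highest mean of 5 rumen epithelium genes, 8.22 against 6.45 to 7.81 in the other groups, and of 6 adipose genes, 7.21 against 6.57 to 6.92. In the low-low group as a whole these lists ranged from 6.51 to 8.22 and from 6.69 to 7.21. The 5 smooth muscle genes averaged 12.68 in steer 1, below the 12.80 to 15.15 of the other groups. The part of these lists in the HSP90 values was not tested. The mean of 13 immediate early genes, which are transcribed soon after many stimuli, was 10.28 in steer 1 and 10.20, 11.21 and 11.79 in the other low-low steers. It ranged from 9.52 to 11.73 in the other groups, so the steer highest in HSP90 genes was not high in immediate early genes. The means of the B cell, T cell and red pulp macrophage lists differed by -0.02, 0.21 and -0.10 between the low-low animals and the rest, each within 1 standard error.

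The within-group spread of the members was widest in the low-low animals with all 4 steers, and not without steer 1. The median SD of the members was 0.71 there, 0.47 in the high-high, 0.31 in the high-low and 0.32 in the low-high animals. Without steer 1 the low-low median was 0.35, below that of the high-high animals, and the SD of HSP90AA1 went from 0.72 to 0.13. With all steers, for 8 of the 10 members the SD was largest in the low-low group, beside 17.5% of all rows. The median SD over all rows was 0.22 in this group, the lowest of the 4 groups.

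The gain by intake interaction, formed as high-high plus low-low minus high-low minus low-high, was positive for all 10 members. It ranged from 0.53 (standard error 0.29) for PTGES3 to 1.67 (standard error 0.59) for CHORDC1, and was 1.23 (standard error 0.34) for the member mean. Of the members, 6 come from the study's own set of interaction genes. HSP90AB1 had an interaction of 0.76 (standard error 0.30), although its low-low difference was small. Most of it was the gap between its low-low mean, 14.60, and its low-high mean, 13.99. Its high-high and high-low means, 14.55 and 14.40, lay closer together. Without high-high steer 4 the interaction of HSP90AB1 was 0.60 (standard error 0.28) and no longer passed an unadjusted p of 0.05. The same held without high-high steer 3 (0.67) or low-low steer 3 (0.66). In limma, 9 members, all but PTGES3, had a positive interaction at an unadjusted p under 0.05, beside 2.46% of all rows that were positive, 2.19% negative and 4.64% in either direction, and 0 rows were called after adjustment. With arrays centred on their medians, the positive rows went from 606 of 1145 to 719 of 1135, and the 9 members stayed 9 in number.

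Averaged over intake, high gain animals were lower than low gain animals for 9 members, from -0.18 (standard error 0.14) for PTGES3 to -0.50 (standard error 0.27) for AHSA1, and higher by 0.18 (standard error 0.15) for HSP90AB1. SUGT1 alone passed an unadjusted p of 0.05, beside 3.45% of all rows that were lower with high gain, 2.61% higher and 6.06% in either direction. With arrays centred on their medians, the higher rows went from 644 of 1495 to 870 of 1494, and 0 members passed. For intake, all 10 members were lower in the high intake animals, from -0.13 (standard error 0.14) for PTGES3 to -0.71 (standard error 0.26) for AHSA2. AHSA2, CACYBP, CHORDC1 and SUGT1 passed an unadjusted p of 0.05, beside 1.69% of all rows that were lower with high intake, 1.72% higher and 3.4% in either direction. Both contrasts contain the low-low animals. Without low-low steer 1, these counts were 0 members for gain, beside 5.18% of all rows in either direction, and 2 for intake, beside 3.11%. After adjustment over all rows, 0 members and 0 rows passed for gain or intake by limma or ordinary least squares.

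Among the other 3 groups, 1 member passed an unadjusted threshold. In the F test with 2 degrees of freedom over the high-high, high-low and low-high animals, HSP90AB1 alone had an unadjusted p under 0.05, beside 4.17% of all rows, and 0 rows passed after adjustment. It no longer did when any of 10 of the 16 steers was left out, high-high steer 4 among them. The member mean in the 12 steers ran from 12.53 to 13.27, and high-high steer 4 held the top of that range. This steer was the highest or the next below for HSP90AB1, STIP1, FKBP4 and AHSA1, 4 of the 10 members, beside 19.3% of all rows. It was at rank 11, 13 and 14 of 16 for CHORDC1, AHSA2 and SUGT1.

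Outside the low-low group, pairs of members varied together from steer to steer to different degrees. AHSA2 and CHORDC1 were the closest pair, with a Pearson r of 0.89 and a Spearman rho of 0.93 over 12 steers, and CACYBP correlated with them at 0.69 and 0.56 (rho 0.65 and 0.58). FKBP4 and AHSA1 had an r of 0.85 but a rho of 0.52, and HSP90AB1 and STIP1 0.77 and 0.63. Between FKBP4 and AHSA2 the r was -0.47 and the rho -0.63. HSP90AA1 correlated positively with all 9 other members, with r from 0.27 to 0.54. Without high-high steer 4, its r ran from 0.04 with STIP1 to 0.62 with SUGT1, and was 0.08 with FKBP4 and 0.11 with HSP90AB1. The sets described here were formed from these same correlations, and HSP90AA1 is in neither. Within HSP90AB1, STIP1, FKBP4 and AHSA1, the median r of 6 pairs was 0.69, and without high-high steer 4 it was 0.26 with a lowest r of -0.30. Within AHSA2, CHORDC1, CACYBP, PTGES3 and SUGT1, the median r of 10 pairs was 0.52, and 0.60 without that steer. Over the 20 pairs that cross the sets, the median was -0.10. The 12 points share normalization between arrays and come from 3 groups.

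**Figure D3:**
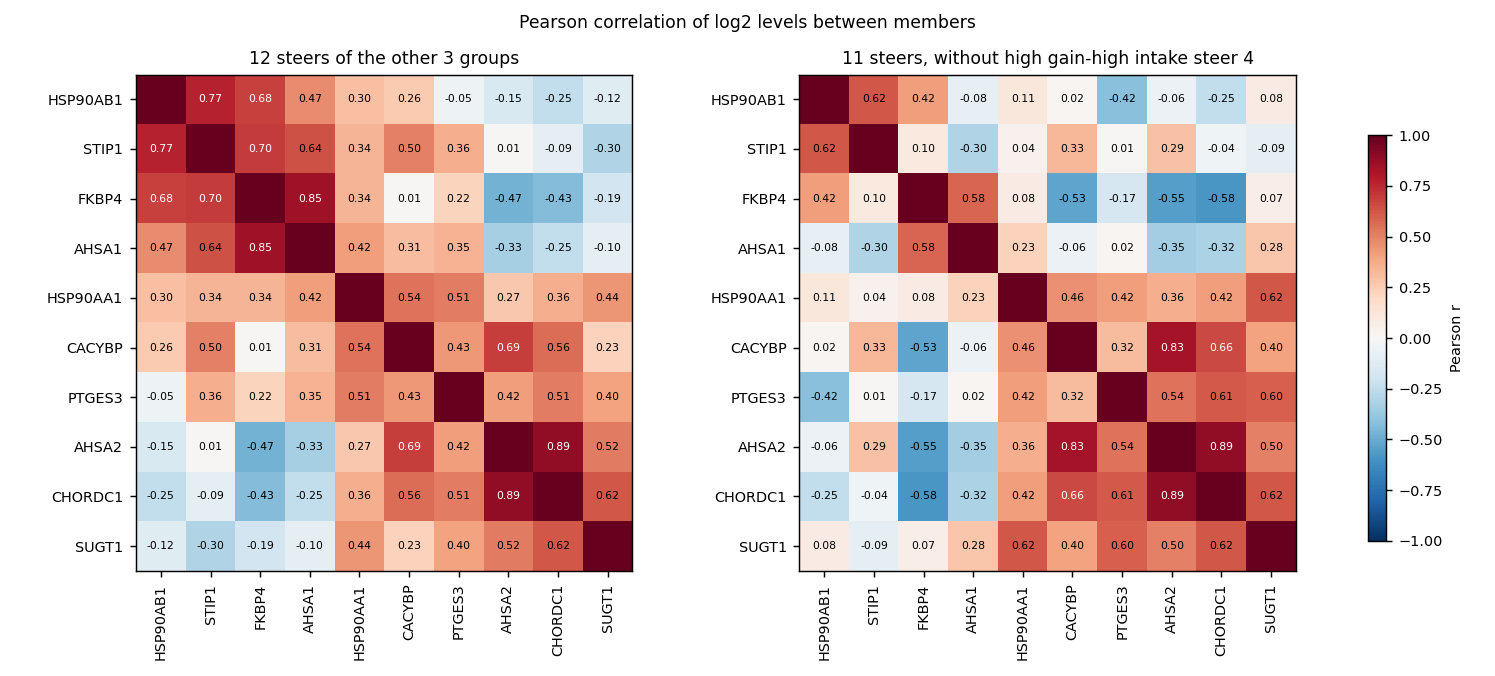
Pearson r of log2 levels for each pair of members, over the 12 steers outside the low-low group (left) and over 11 steers without high-high steer 4 (right). The r of AHSA2 and CHORDC1 was 0.89 in both, while that of STIP1 and FKBP4 went from 0.70 to 0.10.

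The low-low differences of other genes of the HSP90 machinery were centred on 0. This list holds further cochaperones, and the members are not in it. The members were chosen with results on these animals known, so the gap between them and this list is not read as a result. Of 29 other genes of the HSP90 machinery measured, 15 had a positive and 14 a negative low-low difference, with a median of 0.00 and a range from -0.19 to 0.54. Of these, 2 were higher and 0 lower at an unadjusted p under 0.05, beside 2.96% and 2.54% of all rows, and 0 passed after adjustment. They were PPID and ST13. PPID, a cyclophilin that like FKBP4 is found in steroid receptor complexes, was 0.54 higher (standard error 0.19, limma adjusted p = 0.788). ST13, which works with STIP1 on HSP70, was 0.53 higher (standard error 0.18, limma adjusted p = 0.743). Without low-low steer 1, PPID was at 0.32 (standard error 0.18) and no longer passed the unadjusted threshold, while ST13 was at 0.43 (standard error 0.19) and did. FNIP2, an inhibitor of the HSP90 ATPase, was next with 0.40 (standard error 0.26). DNAJC7, PPP5C and SGTB, 3 cochaperones with tetratricopeptide repeats, each had a difference of -0.19, with standard errors of 0.18, 0.16 and 0.18.

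Transcripts of HSP90 clients had low-low differences centred on 0 as well. Of 23 client genes measured, 11 had a positive and 12 a negative difference, with a range from -0.50 to 0.35. CDK4, a cell cycle kinase, was lowest at -0.50 (standard error 0.20, limma adjusted p = 0.843). It was the 1 client at an unadjusted p under 0.05, beside 2.54% of all rows lower and 5.49% in either direction. CDK4 missed this threshold without low-low steer 1 (-0.48, standard error 0.24), and also without low-low steer 2 or 3. EIF2AK2, a kinase that senses double-stranded RNA, and NR3C2, the mineralocorticoid receptor, followed at -0.10 (standard error 0.65) and -0.09 (standard error 0.23). RIPK1, a kinase of death receptor signaling, was highest at 0.35 (standard error 0.20), followed by ZAP70, a T cell receptor kinase, at 0.29 (standard error 0.30) and JAK2, a cytokine receptor kinase, at 0.28 (standard error 0.34). The gain by intake interaction had a median of 0.26 over the clients and 0.09 over the other machinery, beside -0.018 over all rows. Over the tissue and cell type marker lists this median ran from -0.33 (erythroid) to 0.29 (T cell), and it was 0.43 over the immediate early genes. The interaction was 0.21 (standard error 0.06) for the client mean and 0.22 (standard error 0.10) for the machinery mean. The client mean was 11.26 in the high-high, 11.18 in the high-low, 11.21 in the low-low and 11.09 in the low-high animals, so the low-low group was not the highest. RIPK1, at 0.83 (standard error 0.35), was the 1 client with an interaction at an unadjusted p under 0.05, and ST13, at 0.76 (standard error 0.30), the 1 machinery gene. Over all rows, 2.46% were so called with a positive interaction and 4.64% in either direction, so nothing is read from these counts. Without low-low steer 1, RIPK1 (0.82, standard error 0.37) still passed and ST13 (0.66, standard error 0.31) did not.

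Neighbouring chaperone families covered a wider range. Over 8 genes of HSP70 and HSP110 the differences ran from 0.07 to 2.97 with a median of 0.42, and over 10 cytosolic DnaJ genes from -0.44 to 2.21 with a median of 0.30. The 10 HSP90 members ran from 0.28 to 1.25. For list means, the difference was 0.83 (standard error 0.18) in HSP70 and HSP110 and 0.71 (standard error 0.14) in the DnaJ genes. It was 0.88 (standard error 0.20) for the member mean. All 4 low-low steers lay above the other 12 in the HSP70 and HSP110 mean. In the DnaJ mean and in the member mean, 2 of them did. HSPH1, a nucleotide exchange factor of HSP70, was the gene whose pattern was most like the member mean over the 16 steers, with an r of 0.95 and a Spearman rho of 0.94. It was followed by HSPA4 (r = 0.90, rho = 0.80), PPID (r = 0.89, rho = 0.81), SLC5A3 (r = 0.87, rho = 0.88) and DNAJA4 (r = 0.86, rho = 0.60). The median gene of 18432 had an r of -0.03. Because the members were chosen with results on these animals known, this ranking favours genes that are high in the low-low animals. With each group's mean subtracted, HSPH1 was again first (r = 0.87, rho = 0.91), followed by PPP3R1, RAB39B, LOC518911 and PPID, with r between 0.84 and 0.87. PPP3R1, RAB39B and LOC518911 had low-low differences of 0.04, -0.09 and 0.09, each within 1 standard error of 0. RAB39B and LOC518911 were dim, with low-low means of 7.37 and 7.13, below the array medians. Likeness to the member mean was not computed without low-low steer 1. Between members, the median r with group means subtracted was 0.54 over 16 steers and 0.34 without that steer. HSPA8, the constitutive HSP70, had an r of 0.84 (rho 0.64) and DNAJB1, an HSP40, an r of 0.74 (rho 0.57) with the member mean. On 6 arrays HSPA8 had the same value of 17.86 to 3 decimals.

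**Figure D4:**
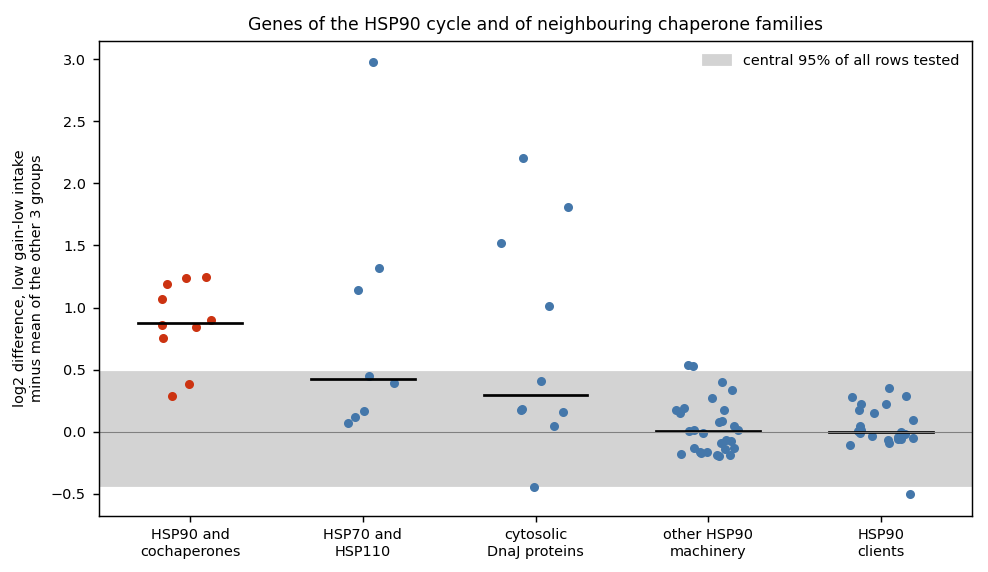
Log2 difference of the low-low group from the mean of the other 3 groups (y axis) for each gene of 5 lists (x axis). Black lines are list medians, 0.88 for the members (HSP90 and cochaperones) and 0.00 for the other HSP90 machinery, which holds further cochaperones. The members were chosen with results known, so the gap between these lists is not read as a result. The grey band holds the central 95% of all rows, from -0.43 to 0.48.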

How the data were processed

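Spleen RNA of 16 steers was hybridised to Affymetrix Bovine 1.1 ST arrays. In Affymetrix Expression Console, the authors ran GC count normalization, signal space transformation (which stretches the signals) and RMA, and they deposited 1 log2 value per transcript cluster and steer. Transcriptome Analysis Console is also named in the submitters' processing notes. Their versions are not given there or in the study's methods. Of 26773 deposited features, 1776 whose ID precedes every annotated ID were set aside. Clusters of a single symbol were averaged, which left 24651 rows. Symbols are those of the platform annotation, and 18003 of 18790 clusters with 1 symbol matched a current RefSeq gene.

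A limma 3.58.1 model (R 4.3.3; lmFit, then eBayes) held a mean for each of the 4 groups. P-values were adjusted over all rows by Benjamini-Hochberg. Standard errors of single genes are those of this fit, and those of list means come from the pooled within-group variance. The fit was tested on simulated data. Pearson correlations were computed with numpy 2.4.6 and Spearman correlations with scipy 1.17.1. The members, gene lists and tests were chosen with earlier results of these data known. Named beside the members are the 3 highest and 3 lowest genes of the machinery and client lists by low-low difference, the 5 genes most like the member mean with and without subtraction of group means, and HSPH1, HSPA8 and DNAJB1. The neutrophil, erythroid, smooth muscle and liver lists differed by -0.13, -0.40, -0.33 and -0.01 between the low-low animals and the rest, with standard errors of 0.43, 0.36, 0.43 and 0.07, and the pancreas, rumen epithelium and adipose lists by -0.03, 0.14 and 0.11, with standard errors of 0.07, 0.35 and 0.09.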

Additional observations from a re-analysis of the deposited data

Results flagged for a closer look

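In 6 of 44 sets of 4 steers, formed by a member or the member mean and a group, 1 steer lay far from the other 3, with a gap to the nearest, as a share of the range, past the limit of Dixon's test for 4 values. For independent sets of normal values, chance gives about 1 in 20. These sets share steers and correlated genes, and the member mean is built from the members, so the count cannot be set against that rate. HSP90AA1 was 16.82 in low-low steer 1, where the next was 15.55. AHSA1 was 12.01 in high-high steer 4, with the next at 10.80, and 10.26 in low-high steer 2, with the others from 10.85 to 10.92. AHSA2 was 10.57 in high-high steer 2, with the next at 9.90, and 9.50 in high-low steer 4, with the others from 10.20 to 10.27. PTGES3 was 15.68 in high-low steer 3, with the next at 15.24.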

How the results depend on the processing

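No paired analysis was possible because the labels give no replicate numbers that the groups share. The difference of the member mean lay between 0.59 and 1.02 when 1 steer was left out and between 0.83 and 0.95 under the other alternatives, and the interaction between 0.94 and 1.37 and between 1.17 and 1.30. No member reached an adjusted p under 0.05 in any alternative. Array weights called 3 rows after adjustment in the low-low comparison, and 5 of the other HSP90 genes, machinery and clients together, at an unadjusted p under 0.05 (PPID, ST13, CDK4, RIPK1 and ITGB1BP2), where equal weights gave the 3 named PPID, ST13 and CDK4. All rows so called went from 1354 to 2022. Leaving out dim rows, so that fewer were tested, gave 565 rows at an unadjusted p under 0.05 for the F test, 860 for low-low, 705 for gain, 376 for intake, 655 for the interaction and 378 among the other groups, against 1160, 1354, 1495, 839, 1145 and 1028. For gain, the members at an unadjusted p under 0.05 numbered 0 with trend and robust moderation or median-centred arrays and 2 with array weights. For intake they were 2 with ordinary least squares. Among the other groups they were 0 with trend and robust moderation, ordinary least squares, array weights, quantile normalization and without dim rows. The cause of these changes was not tested.

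With 1 steer left out, the members at an unadjusted p under 0.05 ranged from 2 to 9 in the F test (2 without low-low steer 1), from 8 to 9 for low-low, from 0 to 4 for gain, from 2 to 5 for intake, from 8 to 10 for the interaction and from 0 to 1 among the other groups. For gain the count was 4 without low-low steer 3 and 0 without high-low steer 2 or 4, low-low steer 1 or 4, or low-high steer 3. For intake it was 2 without high-high steer 3, high-low steer 1 or 3, low-low steer 1, or low-high steer 3 or 4. Among the other groups it was 0 without high-high steer 3 or 4, high-low steer 1, 2 or 4, low-low steer 1 or 2, or low-high steer 1, 2 or 3. The other HSP90 genes ranged from 1 (ST13), without low-low steer 1, to 5 (FNIP2 and RIPK1 added), without high-high steer 4. Rows past an adjusted p of 0.05 ranged from 0 to 11 for low-low (11 without low-low steer 2, 2 without high-high steer 4, 1 without low-low steer 4). They ranged from 0 to 1 for the F test and the interaction (1 without low-low steer 2 or 4) and for gain and intake (1 without low-low steer 4). Rows at an unadjusted p under 0.05 ranged from 908 to 1480, 959 to 1727, 1210 to 1866, 766 to 1201, 949 to 1413 and 841 to 1375, in the order given above. Median-centring moved the split of rows for gain from 644 higher of 1495 to 870 of 1494, and for the interaction from 606 positive of 1145 to 719 of 1135. With 4 steers per group and no day, strip or breed per animal, these could not enter the fit.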
